A study of Homo sapiens with 12 samples.

Results

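PERP and 9 desmosome components were followed on 12 expression arrays of RCC4 cells, an established human line from a clear cell renal carcinoma. The 10 genes were PERP, the desmosomal cadherins DSG2, DSC2 and DSC3, the armadillo proteins JUP, PKP2 and PKP4, and the plakins DSP, PPL and EVPL. They were picked by name with results of these arrays already known, and the values behind the choice are not recorded. Their values, and the calls and counts at limma thresholds, are therefore given as a description, with no p-value printed for them. A probe set was taken for a gene where the platform annotation gave it that symbol and no other, which yielded 16 of 19064 probe sets and all 10 genes among the 11963 measured. Of the 10 genes, 6 were read by 1 probe set and 4 by several, whose mean stands for the gene.

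The arrays fall into 4 groups with 3 biological replicates each. Every culture was transfected with siRNA (40 pmol) and collected 72 h later: the control cells received a non-targeting AllStars siRNA (siNT), and the others received an siRNA to MESH1 of 1 sequence (siMESH1), pooled siRNAs to ATF4 (siATF4), or both (siMESH1+siATF4). How the amount was split between the siRNAs in the last group is not given in the sources used here. With 1 cell line and 1 MESH1 siRNA, the effect of that reagent and the loss of MESH1 cannot be told apart. The same holds for the ATF4 siRNA pool and the loss of ATF4. The question behind the design was which changes after MESH1 knockdown depend on ATF4. MESH1 removes a phosphate from NADPH in the cytosol, and ATF4 is a transcription factor that cells make more of under amino acid shortage and other stresses.

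Desmosomes are spot-like junctions that tie the keratin filaments of neighbouring epithelial cells together. Their desmoglein and desmocollin cadherins bridge the gap between cells, plakoglobin and the plakophilins bind the cadherin tails, and desmoplakin links this plaque to the filaments. PERP is a small membrane protein of the PMP22 family, first known as a death-promoting target of p53, which sits in desmosomes and is needed for their integrity in stratified epithelia. Kidney tubule cells carry desmosomes as well, built with DSG2 and DSC2.

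All values are log2 signals from which the mean of the siNT arrays was subtracted for each probe set, so they are differences and not levels. It follows that these arrays cannot show which of the genes RCC4 cells express strongly, nor rank the genes by level. A gene was called where limma's Benjamini-Hochberg adjusted p over all 11963 genes was under 0.05 and the log2 change was 0.5 or more in size, called the fold minimum here and taken from the methods of the study. ATF4 served as the check of silencing. It lay between -2.33 and -2.29 on the siATF4 arrays and between -2.46 and -2.23 on the siMESH1+siATF4 arrays, against -0.10 to 0.10 with siNT. HDDC3, the gene of MESH1, was not analysed here. In bulk RNA, fewer cells that express a gene and less RNA of it per cell cannot be told apart. The gap between the 3′ and 5′ control probe sets for ACTB (3′ minus 5′) was lower with ATF4 knockdown, at -0.29 ± 0.08 (SD, n = 3) in siATF4 and -0.30 ± 0.13 in siMESH1+siATF4, against -0.11 ± 0.15 in siMESH1. The same difference for GAPDH was -0.09, -0.02 and 0.08 in these groups. The hybridisation spike-ins lay at 0.25 ± 0.08 in siATF4, 0.07 ± 0.15 in siMESH1+siATF4 and -0.02 ± 0.04 in siMESH1. The part of these shifts in the results was not tested.

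The promoters of PERP and DSC2 are shown because these genes moved in opposite directions in siMESH1+siATF4. Each stretch is the 250 bases before a transcription start in the RefSeq table of GRCh38.p14, written 5′ to 3′ on the gene's own strand. Capitals mark copies, on either strand, of GGGCGG, the GC box bound by SP1-type factors, or of CAGGTG, the E-box bound by SNAI and ZEB repressors. DSC2 has 2 listed starts.
PERP promoter, chr6:138107420-138107669, minus strand: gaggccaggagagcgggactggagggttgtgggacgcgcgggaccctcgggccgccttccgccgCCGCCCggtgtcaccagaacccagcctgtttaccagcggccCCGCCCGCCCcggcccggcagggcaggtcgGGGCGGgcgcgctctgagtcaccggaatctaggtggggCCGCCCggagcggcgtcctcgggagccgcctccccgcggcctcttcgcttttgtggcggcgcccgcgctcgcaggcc
DSC2 promoter at the outer start, chr18:31102422-31102671, minus strand: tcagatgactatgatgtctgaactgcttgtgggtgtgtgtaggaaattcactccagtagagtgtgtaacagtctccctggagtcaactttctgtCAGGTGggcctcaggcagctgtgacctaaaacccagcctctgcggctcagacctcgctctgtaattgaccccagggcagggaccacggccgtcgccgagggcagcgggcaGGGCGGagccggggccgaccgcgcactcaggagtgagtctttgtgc
DSC2 promoter at the inner start, chr18:31101261-31101510, minus strand: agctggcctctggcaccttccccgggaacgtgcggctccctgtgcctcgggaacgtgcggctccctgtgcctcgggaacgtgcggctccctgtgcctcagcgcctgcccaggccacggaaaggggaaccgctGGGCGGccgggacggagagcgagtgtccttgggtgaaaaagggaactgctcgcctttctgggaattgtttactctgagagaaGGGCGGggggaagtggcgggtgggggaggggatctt
The PERP stretch held 5 copies of GGGCGG, overlapping copies counted, and 0 of CAGGTG, with a GC content of 77.2%. The outer DSC2 stretch held 1 copy of each motif at a GC content of 59.6%, and the inner held 2 copies of GGGCGG at 66.8%. The composite ATF4 and C/EBP element TGATGNAA and the cyclic AMP element TGACGTCA were searched on both strands as well. Neither occurred in these stretches or in those of the other members with an entry, DSP, DSG2, DSC3, JUP and PKP4. Among all 35116 promoters of the table, 3.14% held TGATGNAA, 1.65% TGACGTCA, 17.5% CAGGTG and 42.6% GGGCGG. Of the 7 members with an entry, CAGGTG was found for 4 (DSP, DSG2, DSC2 and JUP) and GGGCGG for 6, DSC3 being without it. A member counted if any of its listed starts held the motif, and DSC2, JUP and PKP4 have more than 1 start. The shares of the table are per promoter, so the member counts and these shares are not like measures. A match is a run of letters and not a measured binding site. PKP2, PPL and EVPL had no entry.

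PERP showed the widest swing of the 10 genes, and it came with the ATF4 siRNA. Its probe set read 0.01, -0.09 and 0.09 on the siNT arrays and 0.27, 0.30 and 0.38 on the siMESH1 arrays. With ATF4 knockdown it read -1.38, -1.56 and -1.67 in siATF4 and -1.61, -1.60 and -1.39 in siMESH1+siATF4. Every array with the ATF4 siRNA thus lay more than a log2 unit below every array without it, whereas the siATF4 and siMESH1+siATF4 arrays overlapped. Against siNT, PERP was 2.89-fold lower in siATF4 (-1.53, SE 0.08), where it ranked 53 from the bottom among the 11963 genes, and again 2.89-fold lower in siMESH1+siATF4 (-1.53, SE 0.08). Against siMESH1 the fall in siMESH1+siATF4 was 3.6-fold (-1.85, SE 0.08), rank 4 from the bottom. The difference between siMESH1+siATF4 and siATF4 was 0.002 (SE 0.08). MESH1 knockdown alone left PERP 0.32 above siNT (SE 0.08), with the arrays apart and the change below the fold minimum. Under the housekeeping centrings this value was 0.65 (their mean) and 0.53 (their median), and PERP was then called higher. In order, siMESH1 stood highest, then siNT, then siATF4 and siMESH1+siATF4 together, whose means did not differ beyond their spread of 0.14 and 0.12 (SD, n = 3). All centrings of the arrays kept PERP called lower in the comparisons of an ATF4-silenced group with siNT or siMESH1, between -1.96 and -1.31. PERP has a single probe set, so no second probe set can check it, and it is of the type that may cross-hybridise. The ACTB shift given above lay on the same arrays. The study set aside genes changed by siATF4 alone as off-target effects, reasoning that unstressed RCC4 cells express little ATF4. PERP changed in siATF4 alone.

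**Figure D1:**
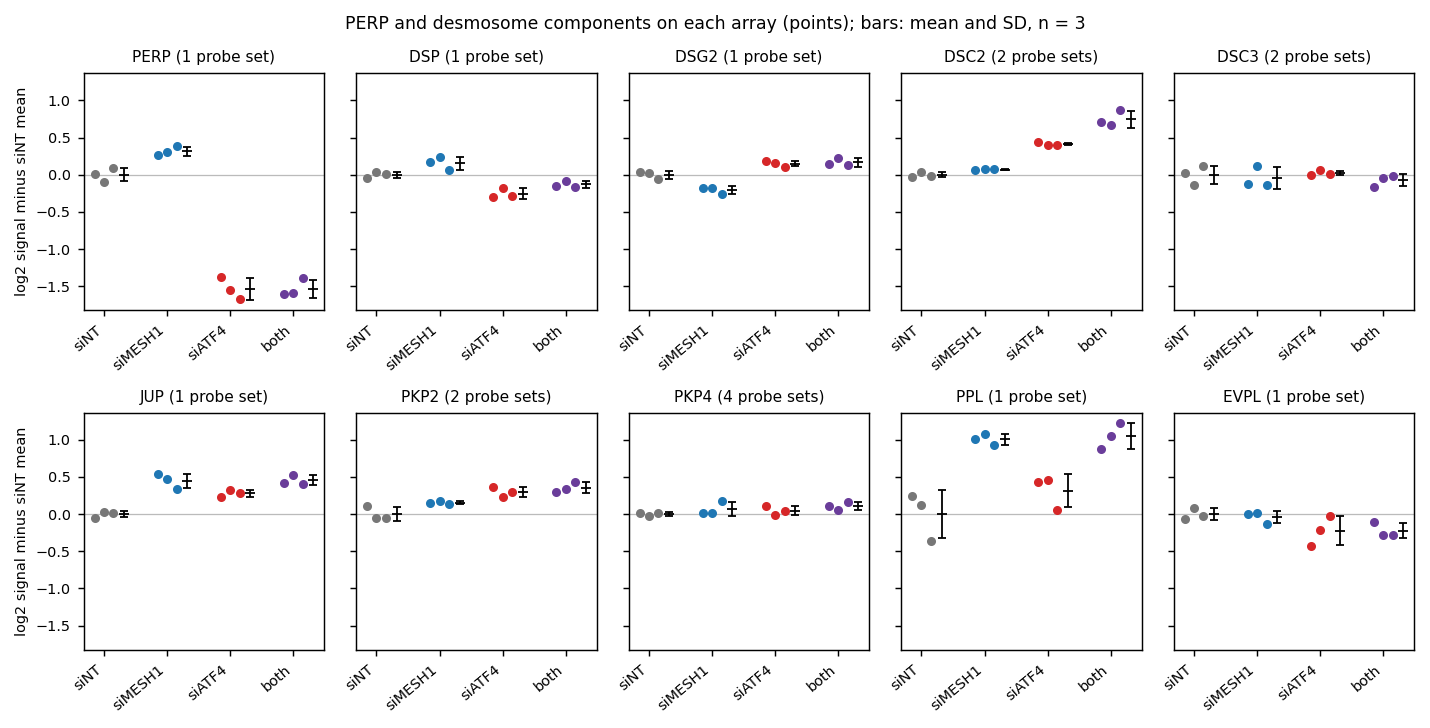
Each panel shows 1 gene, with the log2 signal minus the siNT mean on the vertical axis and the 4 groups on the horizontal axis ("both" is siMESH1+siATF4). Points are arrays and bars the mean and SD of 3 arrays. PERP lies near -1.53 in both groups with ATF4 siRNA, PPL lies near 1.00 and 1.05 in both groups with MESH1 siRNA, and DSC2 climbs from 0.42 in siATF4 to 0.75 in siMESH1+siATF4.

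The desmosomal cadherins did not move as 1 group. DSC2, the widely expressed desmocollin, read -0.03, 0.04 and -0.02 on the siNT arrays, 0.06, 0.07 and 0.08 with siMESH1, 0.44, 0.41 and 0.40 with siATF4, and 0.71, 0.67 and 0.88 with siMESH1+siATF4. On this mean of its probe sets the 4 groups formed 4 separate steps, with no overlap between any pair of them. On either probe set alone the siATF4 and siMESH1+siATF4 arrays overlapped. On 204751_x_at those of siNT and siMESH1 overlapped as well, and siATF4 replicate 1, at 0.03, lay within the range of both. The gene was called in siMESH1+siATF4, 1.68-fold higher than siNT (0.75, SE 0.06) and 1.6-fold higher than siMESH1 (0.68, SE 0.06), and its 0.42 in siATF4 was below the fold minimum. With arrays centred on the housekeeping mean the siATF4 value was 0.56 and was called. The spread of the gene's mean was narrower than that of its probe sets, which disagreed, and neither is free of possible cross-hybridisation. The 204750_s_at probe set gave 0.63 in siATF4 and 0.94 in siMESH1+siATF4 (SE 0.12 each) and was called in both, whereas 204751_x_at gave 0.21 and 0.56 (SE 0.11 each) and was called in siMESH1+siATF4. Their distance varied from array to array: on siATF4 replicate 1 they read 0.85 and 0.03, and on siATF4 replicate 2 they read 0.42 and 0.39. The promoters printed above belong to this gene's listed starts.

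DSG2, the desmoglein of simple epithelia, read 0.04, 0.02 and -0.06 with siNT and -0.18, -0.18 and -0.26 with siMESH1. It read 0.18, 0.16 and 0.11 with siATF4 and 0.14, 0.23 and 0.13 with siMESH1+siATF4. The siMESH1 arrays lay below all others and the arrays with ATF4 siRNA above all others, although each distance was small. Against siNT, DSG2 was at -0.21 with MESH1 knockdown, 0.15 with ATF4 knockdown and 0.17 with both (SE 0.05 each), and at 0.37 in siMESH1+siATF4 against siMESH1. None of these reached the fold minimum, and centring on housekeeping genes turned the siMESH1 value to 0.13 (their mean) or 0.007 (their median). DSC3, a desmocollin of stratified epithelia, was at -0.04, 0.02 and -0.07 in siMESH1, siATF4 and siMESH1+siATF4 (SE 0.08 each), and the arrays of these groups overlapped those of siNT. The first and last of these DSC3 values turned above 0 under the housekeeping centrings.

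The desmosomal cadherin genes lie side by side on chromosome 18 in the RefSeq table, in the order CDH2, DSC3, DSC2, DSC1, DSG1, DSG4, DSG3 and DSG2, and DSG4 was not analysed here. In siMESH1+siATF4 against siNT, DSC2 at 0.75 had DSC3 at -0.07 and DSC1 at 0.02 (SE 0.06, adjusted p = 0.85 by limma) as its neighbours. Further along, DSG1 was at 0.005 (adjusted p = 0.98 by limma), DSG3 at 0.39 (SE 0.13, adjusted p = 0.03 by limma, below the fold minimum) and DSG2 at 0.17. At the other end CDH2, the N-cadherin of adherens junctions, was at 0.31 (SE 0.05, adjusted p = 0.00021 by limma, below the fold minimum) and was highest in siMESH1, at 0.45. A change of 0.5 was thus reached at DSC2 and at none of its 6 measured neighbours in this order.

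Among the armadillo proteins JUP came closest to a call. JUP, or plakoglobin, which links the cadherin tails to desmoplakin and also serves adherens junctions, read -0.05, 0.03 and 0.02 with siNT and 0.53, 0.47 and 0.34 with siMESH1. It read 0.24, 0.33 and 0.29 with siATF4 and 0.42, 0.53 and 0.41 with siMESH1+siATF4. All silenced arrays lay above all siNT arrays, and the siATF4 arrays lay below those of both groups with MESH1 siRNA. The changes against siNT were 0.45, 0.28 and 0.45 (SE 0.06 each), all below the fold minimum. With the housekeeping centrings JUP passed it in siMESH1 (0.78 and 0.66) and in siMESH1+siATF4 (0.68 and 0.57), and without siMESH1 replicate 3 it passed at 0.501 in siMESH1.

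PKP2, a plakophilin of simple epithelia and heart, was at 0.15, 0.30 and 0.35 in siMESH1, siATF4 and siMESH1+siATF4 (SE 0.06 each). The last of these was 0.58 with the housekeeping mean as centre, and was then called. These means average probe sets that disagree. The 207717_s_at probe set read 0.67, 0.61 and 0.48 with siATF4 and 0.48, 0.60 and 0.72 with siMESH1+siATF4, all above its siNT readings of 0.05, -0.03 and -0.02, and was called in both (0.59 and 0.60, SE 0.08). The 214154_s_at probe set gave 0.02 and 0.11 (SE 0.09) and overlapped siNT. PKP4, a relative of the p120 catenins found at both desmosomes and adherens junctions, had 4 probe sets and was at 0.07, 0.04 and 0.10 (SE 0.06 each). Its widest reading was 0.70 for 201927_s_at on siMESH1 replicate 3, where the other siMESH1 replicates read 0.12 and 0.15.

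**Figure D2:**
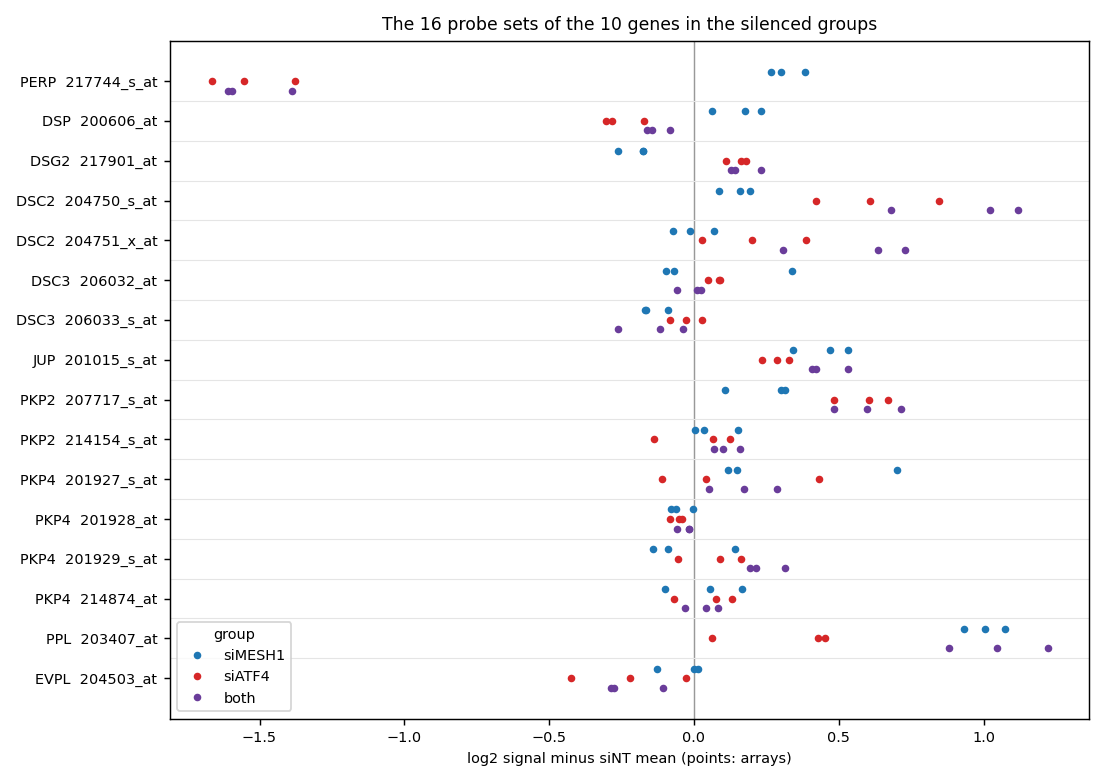
Every row is 1 of the 16 probe sets, with the log2 signal minus the siNT mean on the horizontal axis and 1 point for each silenced array, coloured by group. The PERP points with ATF4 siRNA stand apart at -1.67 to -1.38, the DSC2 probe sets differ by 0.42 in siATF4, and 1 of the PKP2 probe sets lies near 0.59 in siATF4 while the other lies near 0.02.

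The plakins held the member with the clearest response to MESH1 knockdown. PPL, or periplakin, a linker between the membrane, keratin filaments and the cornified envelope, read 0.24, 0.13 and -0.37 with siNT and 1.01, 1.07 and 0.93 with siMESH1. With siATF4 it read 0.43, 0.45 and 0.06, and with siMESH1+siATF4 it read 0.88, 1.05 and 1.22. The arrays that received MESH1 siRNA all lay above those that did not, and they overlapped each other, as did the siNT and siATF4 arrays. PPL was 2.01-fold higher in siMESH1 than in siNT (1.00, SE 0.15), rank 21 from the top among all genes, and 2.07-fold higher in siMESH1+siATF4 (1.05, SE 0.15). Against siATF4 it was 1.66-fold higher in siMESH1+siATF4 (0.74, SE 0.15), rank 9 from the top. Its 0.31 in siATF4 was not called, and siMESH1+siATF4 against siMESH1 gave 0.05 (SE 0.15). Its siNT spread of 0.32 (SD, n = 3) was the widest among the members, set by replicate 3, and without that array the siMESH1 change was 0.82 and the siATF4 change 0.13.

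DSP, or desmoplakin, the linker to keratin, read -0.05, 0.03 and 0.02 with siNT and 0.18, 0.23 and 0.06 with siMESH1. It read -0.31, -0.17 and -0.28 with siATF4 and -0.15, -0.08 and -0.16 with siMESH1+siATF4. The siMESH1 arrays lay above siNT and the arrays with ATF4 siRNA below it, on the same sides of siNT as PERP over a far narrower range. DSP stood at 0.16, -0.25 and -0.13 against siNT (SE 0.06 each) and at -0.29 in siMESH1+siATF4 against siMESH1, none of it at the fold minimum. In siMESH1 against siATF4 it was at 0.41, also below the fold minimum. That value was 0.59 under either housekeeping centring, and DSP was then called. Centring on the housekeeping mean turned the siMESH1+siATF4 value to 0.09. EVPL, or envoplakin, the partner of periplakin in the cornified envelope, was at -0.04, -0.22 and -0.22 (SE 0.09 each), with siATF4 arrays spread from -0.42 to -0.03. Its values in siMESH1 turned above 0 under the housekeeping centrings, at 0.29 and 0.18. EVPL therefore did not share the PPL pattern of high values with MESH1 siRNA.

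**Figure D3:**
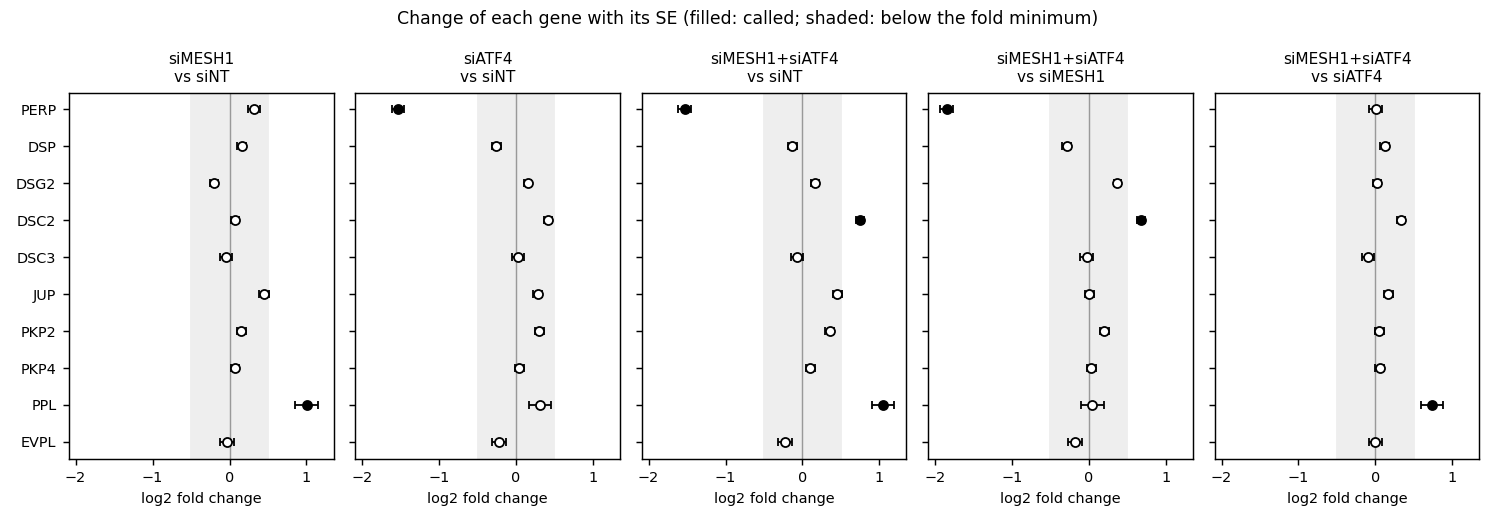
Log2 fold change of the 10 genes (rows) in 5 comparisons (panels), with bars for the SE of the fit, filled points for called genes and shading for changes under the fold minimum of 0.5. PERP is filled at -1.53, -1.53 and -1.85 in the 3 comparisons that add ATF4 siRNA to siNT or siMESH1, and PPL at 1.00, 1.05 and 0.74 in those that add MESH1 siRNA.

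Counted over the members, 1 of 10 was called in siMESH1 vs siNT (PPL), where 8.19% of all genes were called. In siATF4 vs siNT 1 was called (PERP), against 6.52% of all genes. In siMESH1+siATF4 vs siNT 3 were called (PERP, DSC2 and PPL), against 9.65%. In siMESH1+siATF4 vs siMESH1 2 were called (PERP and DSC2), against 6.1%, in siMESH1+siATF4 vs siATF4 1 (PPL), against 1.63%, and in siMESH1 vs siATF4 2 (PERP and PPL), against 8.66%. Because the members may have been chosen on these comparisons, nothing is read from the counts, and comparisons that share the siNT arrays are not independent. Against siNT the members had median changes of 0.11 (siMESH1), 0.10 (siATF4) and 0.13 (siMESH1+siATF4), beside 0.03, 0.02 and 0.01 for all genes. Arrays of the groups did not overlap for 7, 6 and 9 of the 10 members in these comparisons, where 45.1%, 40.1% and 44.8% of all genes did not overlap. For siMESH1+siATF4 vs siMESH1, siMESH1+siATF4 vs siATF4 and siMESH1 vs siATF4 the members without overlap were 5, 5 and 7, against 42.6%, 29.2% and 45.6% of all genes. With the adjusted p alone and no fold minimum, 4, 6 and 6 members passed against siNT in siMESH1, siATF4 and siMESH1+siATF4, beside 33.6%, 28.6% and 35.6% of all genes. On that rule 5 passed in siMESH1+siATF4 vs siMESH1 (28.0% of all genes), 2 in siMESH1+siATF4 vs siATF4 (11.7%) and 6 in siMESH1 vs siATF4 (33.5%).

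The interaction asked whether MESH1 knockdown had another effect with ATF4 silenced than without, taken as the change from siATF4 to siMESH1+siATF4 after subtracting the change from siNT to siMESH1. By limma 0 of 10 members were called, against 4.31% of all genes. Without a fold minimum it was 1 (DSC2), against 11.9%, and 4 had an unadjusted p under 0.05 (PERP, DSG2, DSC2 and JUP), against 25.1%. The count was 0 with robust eBayes and with the housekeeping median as centre, but 3 with the housekeeping mean as centre (PERP at -0.571, JUP at -0.535 and PPL at -0.525). For PERP the interaction value was -0.32 (SE 0.12), made of a difference of 0.32 without and 0.002 with ATF4 siRNA. PPL had -0.27 (SE 0.21), with 1.00 without and 0.74 with ATF4 siRNA. The values for DSG2 and JUP were 0.22 (SE 0.07) and -0.28 (SE 0.08), and that of DSG2 turned to -0.04 with the housekeeping mean as centre.

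The other genes of desmosomes and of the cornified envelope did not pass the call in these comparisons. Of 11 measured, 0 were called in any of the 7 comparisons, by limma with the fold minimum. Of all genes, 1.63% to 9.65% were called in these comparisons, and with 11 genes a count of 0 is near that share. Against siNT the siMESH1 values spanned -0.09 to 0.22, those of siATF4 -0.08 to 0.19 and those of siMESH1+siATF4 -0.20 to 0.39, with medians of 0.006, 0.04 and 0.00. PKP3, the plakophilin most widespread in epithelia, was at -0.02, 0.17 and 0.16 (adjusted p = 0.9, 0.12 and 0.12 by limma). PKP1, DSG1, DSC1, CDSN, IVL and TGM1 are genes of stratified epidermis. For them the values lay between -0.20 and 0.14.

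The keratins, to whose filaments desmosomes attach, changed at KRT18 and KRT19, keratins of simple epithelia. Of 9 measured genes of keratins and vimentin, KRT19 rose in siATF4 (0.75, SE 0.09, adjusted p = 2.6e-05 by limma) and 2.19-fold in siMESH1+siATF4 (1.13, adjusted p = 3.9e-07). KRT18, the partner of KRT8, fell in siMESH1 (-0.54, SE 0.06, adjusted p = 3e-05 by limma), a call lost under the housekeeping centrings (-0.21 and -0.33) and without siNT replicate 2 (-0.49). KRT18 was at 0.495 in siATF4, just under the fold minimum, and rose in siMESH1+siATF4 (0.63, adjusted p = 6.3e-06 by limma). KRT8 was at 0.27 in siATF4 and 0.46 in siMESH1+siATF4 against siNT, below the fold minimum. Against siMESH1, KRT8 (0.54), KRT18 (1.16) and KRT19 (1.28) were all higher in siMESH1+siATF4, KRT8 losing its call under the housekeeping centrings (0.43 and 0.45) and without siMESH1 replicate 3 (0.49). VIM was at -0.02, 0.10 and 0.16 against siNT, and medians of the list were -0.02, 0.03 and 0.05.

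Other junctions had called genes as well. Of all genes, 8.19%, 6.52% and 9.65% were called against siNT in siMESH1, siATF4 and siMESH1+siATF4. Of 12 adherens junction genes, NECTIN3, a cell adhesion molecule of the nectin family, fell 2.23-fold in siMESH1 (-1.16, SE 0.06, adjusted p = 1.2e-08 by limma), and NECTIN2 rose in siATF4 (0.72, adjusted p = 2e-06) and in siMESH1+siATF4 (0.90, adjusted p = 1.4e-07). In siMESH1+siATF4 against siMESH1, NECTIN3 (0.85) and NECTIN2 (0.51, lost under the housekeeping centrings at 0.40 and 0.41 and without siMESH1 replicate 1, at 0.496, siMESH1 replicate 3, at 0.491, or siMESH1+siATF4 replicate 2, just under 0.5) were higher. CDH1, or E-cadherin, was at -0.09, -0.06 and -0.02 against siNT (adjusted p = 0.31, 0.51 and 0.88 by limma). CTNNB1, the armadillo relative of JUP, was at 0.13, 0.17 and 0.09. The median of the list was 0.10, 0.01 and -0.02.

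Of 12 tight junction genes, the claudin CLDN4 was higher in siMESH1 (0.501, adjusted p = 2.7e-05 by limma), siATF4 (0.57, adjusted p = 1.2e-05) and siMESH1+siATF4 (0.77, adjusted p = 4.5e-07). Its siMESH1 call was lost when arrays were centred on their median (0.48) or when siNT replicate 1 (0.47), siNT replicate 3 (0.49) or siMESH1 replicate 1 (0.45) was left out. CLDN1 was called in siMESH1+siATF4 (0.52), a call lost without siNT replicate 3 (0.46) or siMESH1+siATF4 replicate 1 (0.49) or 3 (0.47). PARD3, a polarity scaffold, was lower in siMESH1+siATF4 than in siMESH1 (-0.55, adjusted p = 2.8e-05), which was lost without siMESH1 replicate 3 (-0.49). Medians against siNT were 0.07, 0.06 and 0.03. Of 6 gap junction genes 0 were called against siNT, beside 8.19%, 6.52% and 9.65% of all genes. The values of these genes spanned -0.28 to 0.04, -0.12 to 0.07 and -0.14 to 0.09, with medians of -0.21, -0.04 and -0.09.

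Hemidesmosomes, which fix keratin to the matrix below the cell, gave calls for LAMB3 and ITGA6, 2 of 6 measured genes. Both were called in siMESH1 vs siNT, where 8.19% of all genes were called. Nothing is read from a count in so short a list. LAMB3, a chain of laminin-332, fell 2.78-fold in siMESH1 (-1.47, SE 0.08, adjusted p = 1.2e-08 by limma) and rose 2.0-fold in siATF4 (1.00, adjusted p = 5.8e-07). In siMESH1+siATF4 it was at 0.10 against siNT (adjusted p = 0.35) and 1.57 above siMESH1. ITGA6 fell in siMESH1 (-0.62, adjusted p = 5.3e-05) and was 0.52 higher in siMESH1+siATF4 than in siMESH1. Both ITGA6 calls were lost under the housekeeping centrings (-0.29 and -0.41 for the first, 0.41 and 0.42 for the second), and the second also without siMESH1 replicate 1 (0.45) or siMESH1+siATF4 replicate 2 (0.47). ITGB4, the partner of ITGA6 in the hemidesmosomal integrin, was at 0.02, 0.13 and 0.12 against siNT (adjusted p = 0.82, 0.097 and 0.12 by limma). The linkers PLEC and DST and the tetraspanin CD151 lay between -0.15 and 0.17 and were not called either. The 6 measured genes had medians of -0.14, 0.10 and 0.10 against siNT.

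**Figure D4:**
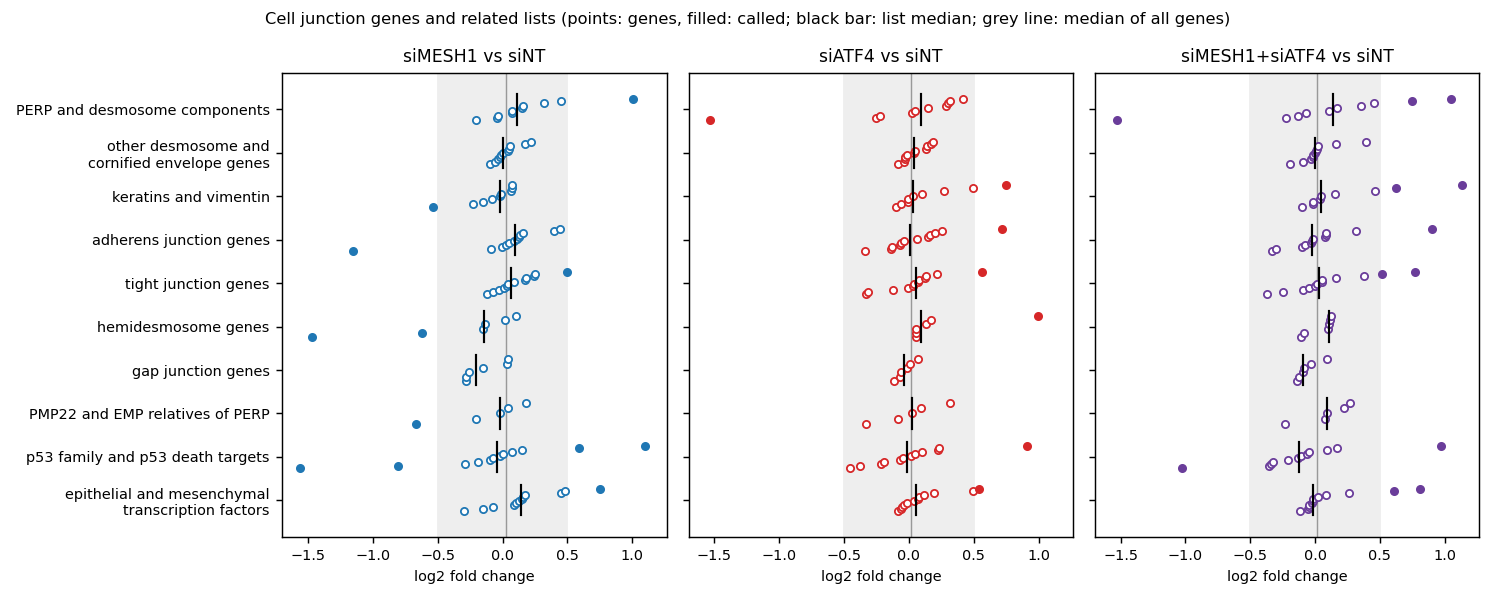
Genes of 10 lists (rows) by their log2 fold change against siNT (horizontal axis) in siMESH1, siATF4 and siMESH1+siATF4 (panels), filled where called, with a black bar at each list's median and a grey line at the median of all genes. List medians stay between -0.21 and 0.14, and the called genes, such as PERP at -1.53 and KRT19 at 1.13, lie outside the shaded range under the fold minimum. Some lists hold several called genes in a panel.

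The relatives of PERP and the genes of the p53 list did not move together. Of 5 measured relatives, EMP2 fell in siMESH1 (-0.67, SE 0.07, adjusted p = 5.9e-06 by limma; lost under the housekeeping centrings at -0.33 and -0.45), and was at -0.33 in siATF4 and -0.23 in siMESH1+siATF4. EMP1 (0.03 in siATF4) and EMP3 (0.32 in siATF4) were not called against siNT, and list medians were -0.02, 0.03 and 0.09. In the list of the p53 family and p53 death targets, 12 genes were measured. TP53I3 rose in all silenced groups (1.10, 0.91 and 0.97, adjusted p = 2.5e-08, 2.4e-07 and 6.5e-08 by limma). PMAIP1, or NOXA, fell 2.95-fold in siMESH1 (-1.56, adjusted p = 2.7e-08) and in siMESH1+siATF4 (-1.03, adjusted p = 1.1e-06), and TNFRSF10B fell in siMESH1 (-0.81, lost under housekeeping mean centring at -0.48). ZMAT3 moved in the directions of PERP in the comparisons given here. It was higher in siMESH1 than in siNT (0.59) and siATF4 (0.965), and lower in siMESH1+siATF4 than in siMESH1 (-0.95). PMAIP1 was 0.54 higher in that comparison, lost under the housekeeping centrings (0.43 and 0.44) and without siMESH1 replicate 1 (0.48) or siMESH1+siATF4 replicate 3 (0.49). MDM2, the p53 target that restrains p53, was at 0.07, 0.10 and 0.09 (adjusted p = 0.27, 0.12 and 0.17 by limma). The list had medians of -0.05, -0.01 and -0.12.

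Of 12 transcription factors of epithelial and mesenchymal identity, SNAI2, a repressor that binds the CAGGTG letters marked above, rose in siMESH1 (0.75, SE 0.07, adjusted p = 2.9e-06 by limma) and in siMESH1+siATF4 (0.61, adjusted p = 1.4e-05). In siATF4 it was at 0.496, just under the fold minimum. ELF3, an activator in epithelia, rose in siATF4 (0.54, adjusted p = 2.7e-05; lost without siNT replicate 3 at 0.48 and without its cross-hybridising probe set type at 0.492) and in siMESH1+siATF4 (0.81, adjusted p = 4.4e-07). List medians were 0.14, 0.05 and -0.02. Of 8 renal epithelial markers, MUC1 fell in siMESH1 (-0.93, adjusted p = 2.3e-07 by limma) and was 1.16 higher in siMESH1+siATF4 than in siMESH1, where EPCAM was 0.60 higher (0.49 with housekeeping mean centring, not called). EPCAM rose in siATF4 (0.60, adjusted p = 7.4e-05). PAX8 was at 0.002, 0.12 and 0.18, and list medians were 0.06, 0.12 and 0.12. Of 9 markers of leukocytes and endothelium 0 were called by limma against siNT, beside 8.19%, 6.52% and 9.65% of all genes. The values of these markers lay between -0.09 and 0.25, with medians of 0.04, 0.14 and 0.03. Of 6 keratinocyte markers FLG, the filaggrin of the epidermis, rose 2.81-fold in siATF4 (1.49, adjusted p = 2e-07 by limma). In siMESH1+siATF4 it was at 0.504, a call lost when arrays were centred on their median (0.49) or when siNT replicate 2 (0.41) or siMESH1+siATF4 replicate 1 (0.45) was left out, and it was 0.73 above siMESH1. KRT5, KRT14, KRT1, KRT10 and IVL were not called, and medians were 0.02, 0.03 and 0.006.

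Genes with the pattern most like that of PERP were sought by Pearson's r over the 12 arrays, which come in 4 groups, so r mostly follows the group means and carries no p. The 5 closest were SNRNP27, a splicing protein (r = 0.992), RAP2C, a small GTPase (0.99), HES1, a Notch-responsive repressor (0.99), PDGFC, a growth factor (0.989), and ZBTB11, a zinc finger protein (0.988). Their means in siATF4 ran from -1.03 for SNRNP27 to -0.53 for ZBTB11, against -1.53 for PERP, and in siMESH1 from 0.05 to 0.17, against 0.32. The members were left out of this search and of the one for DSP, so none of them could appear. Their own r with PERP ran from -0.9 for DSG2 to 0.86 for DSP, below that of each of these 5 genes. No other desmosome gene was among the 5. For DSP the 5 closest were UBE4B (0.97), AUH (0.964), TJP1 (0.962), JAK1 (0.96) and IFT52 (0.959). TJP1 encodes ZO-1, the tight junction scaffold. Its means were 0.25, -0.31 and -0.09 in siMESH1, siATF4 and siMESH1+siATF4, beside 0.16, -0.25 and -0.13 for DSP.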

How the data were processed

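RNA of 12 RCC4 cultures, 3 biological replicates for each of 4 siRNA groups per the labels, was hybridised to Affymetrix arrays. The authors normalized the scans with RMA, and the submitters' processing notes also name Affymetrix Expression Console, both without a version. The deposited values are log2 signals relative to the siNT mean of each probe set, which was within 1.2e-04 of 0 on all 22277 probe sets; they range from -3.77 to 3.41. No level remains, so no filter on dim probes was possible, and the number of arrays limits the precision. Control probe sets (62) and those with several symbols (1043) or none (2108) were left out, 19052 of the other 19064 were matched to RefSeq by Entrez identifier, and 11963 genes were each the mean of their probe sets. All array columns matched a sample and no pair held identical values.

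One limma 3.58.1 fit (lmFit and eBayes, R 4.3.3) held all 12 arrays, with 1 mean for each group and no replicate term, leaving 8 residual degrees of freedom and a prior of 4.32. The fold minimum (0.5 on the log2 scale) and the alternatives of the closing section were applied to 7 comparisons. The code was tested on simulated data. Python 3.11.15, pandas 2.3.3, numpy 2.4.6 and matplotlib 3.10.9 prepared tables and plots. The members and all gene lists were chosen with earlier results of these data known. The adjusted p values printed for listed genes thus describe these arrays and are no independent test. Named genes were the members, ATF4, the 5 genes most like PERP and DSP, and of each list up to 4 called genes per comparison by size of change plus relatives, partners or regulators of a member. The housekeeping list (11 genes measured) served for centring alone: its mean lay at -0.33, -0.15 and -0.22 in siMESH1, siATF4 and siMESH1+siATF4, and 3, 2 and 1 of its genes were called lower.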

Additional observations from a re-analysis of the deposited data

Results flagged for a closer look

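DSC2 drew attention because its change after MESH1 knockdown differed with and without ATF4 knockdown: it was 0.07 (SE 0.06) against siNT and 0.33 (SE 0.06) against siATF4, an interaction of 0.26 (SE 0.08) with 3 arrays in each group. It passed limma's adjusted threshold over all genes barely and with no fold minimum, and lost it under some of the alternatives. DSC2 was picked with results of these arrays known, so no p is given. The value was 0.007 with arrays centred on the housekeeping mean, 0.14 on the housekeeping median, and 0.199 without siMESH1+siATF4 replicate 3. Its probe sets gave 0.17 (SE 0.16) and 0.36 (SE 0.16), and neither passed that threshold by itself. The DSC2 interaction is below the fold minimum.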

How the results depend on the processing

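Every member change kept its direction where it was called, and 0 of the called changes fell out of the call among those that could be computed, apart from the stricter threshold and the methods' t-test below. Centring each array on the mean of 11 housekeeping genes moved the median of all genes in siMESH1 vs siNT from 0.03 to 0.36 (0.24 with their median) and the split of all calls from 337 higher and 643 lower to 2526 and 291 (298 and 482 to 681 and 324 in siATF4 vs siNT, 526 and 628 to 1505 and 372 in siMESH1+siATF4 vs siNT); the cause was not tested. Member calls under mean centring became 3 in siMESH1 vs siNT (PERP, JUP and PPL, and also 3 with their median) and 2 in siATF4 vs siNT (PERP and DSC2). They became 5 in siMESH1+siATF4 vs siNT (with JUP and PKP2 added) and 3 in the interaction (PERP -0.571, JUP -0.535 and PPL -0.525). In siMESH1 vs siATF4 they became 3 under either housekeeping centring, with DSP added at 0.593. Without probe sets ending in _x_at or _s_at, which leaves none for PERP, JUP, DSC2 and PKP2, they were 0 in siATF4 vs siNT, 1 in siMESH1+siATF4 vs siNT, 0 in siMESH1+siATF4 vs siMESH1 and 1 in siMESH1 vs siATF4. With no fold minimum they were 4 in siMESH1 vs siNT, 6 in siATF4 vs siNT, 6 in siMESH1+siATF4 vs siNT, 5 in siMESH1+siATF4 vs siMESH1, 2 in siMESH1+siATF4 vs siATF4, 6 in siMESH1 vs siATF4 and 1 in the interaction. A minimum of 1 on the log2 scale left 2 in siMESH1+siATF4 vs siNT (DSC2 lost), 1 in siMESH1+siATF4 vs siMESH1, 0 in siMESH1+siATF4 vs siATF4 and 1 in siMESH1 vs siATF4. The methods' t-test with Benjamini-Hochberg gave 0 in siMESH1+siATF4 vs siATF4; it and the fit of the compared groups alone were not run for the interaction. Leaving out each array in turn gave 1 to 2 in siMESH1 vs siNT (2 without siMESH1 replicate 3) and moved no other count by over 1.5 times.

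Replicate numbers did not pair the arrays: same-numbered arrays had deviations correlating between -0.191 and 0.0951, and 2 of 12 arrays correlated best with their own number. With the replicate number as a block, all member counts stayed as reported (1, 1, 3, 2, 1, 2 and 0), and 978 in place of 980 genes were called in siMESH1 vs siNT.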
